A study of Mus musculus with 32 samples.

Results

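The genes described here are 39 components of the DNA replication machinery, with transcripts read from murine CD4+ T cells, which become helper and regulatory cells, by RNA sequencing. They are a list of gene names chosen for function: the proteins that license and unwind origins, copy DNA, clamp and protect it, join the fragments and supply nucleotides. All 39 were among the 24302 genes of the count files, and all 39 passed the filter on low counts, which left 12332 genes for testing. The 32 libraries were poly(A)-selected and made with a directional kit, from cells of spleen and lymph nodes (axillary and inguinal) taken from C57BL/6J mice. They form 8 groups of 4. In 16 libraries the genotype label is Nur77KO, a knockout of the nuclear receptor encoded by Nr4a1 (here KO-labelled), and in 16 it is WT. In each genotype 1 group was stimulated for 12 h through CD3 and CD28 in the presence of 10 µg/ml XCT790, which acts as inverse agonist on ERRα, the estrogen-related receptor encoded by Esrra, and 1 in the presence of 10 µg/ml Compound A (CompA), whose structure the labels do not give. A further group was stimulated without an inhibitor, and the last was labelled control, here called unstimulated. The vehicle, the age and sex of the mice and the form of the Nr4a1 deletion have no source here. The labels do not tie the 4 replicates of a group to separate animals, and the p-values measure only how far these libraries spread, which may be technical.

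Replication starts in a step called licensing, in which the origin recognition complex, Cdc6 and Cdt1 load the ring-shaped Mcm2 to Mcm7 helicase onto DNA. At the start of S phase, Cdc45 and the GINS complex join the ring and Mcm10 helps to activate it, and primase and the polymerases then copy both strands behind the fork. Resting T cells hold little of this machinery, and a signal through the T cell receptor and CD28 takes them out of quiescence through G1, when many of these genes are transcribed under the E2F transcription factors before the first S phase.

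Library totals were 16020288 to 23687940 gene counts. Levels are given as TMM-scaled CPM (a gene's counts relative to the library's scaled total), per library in replicate order. The transcript of the targeted gene was not lower in the libraries labelled KO. Nr4a1 stood at 349.8, 506, 229 and 244 CPM in KO-labelled and 130.5, 153, 175 and 207 CPM in WT stimulated cells (log2 fold change 1.0, SE 0.23, adjusted p = 0.0015), and at 86.2, 93.4, 87.2 and 109.8 CPM in KO-labelled and 45.2, 96.03, 66.7 and 78.6 CPM in WT unstimulated cells (log2 fold change 0.39, SE 0.23, adjusted p = 0.17). A gene-wide count does not show a deletion that leaves a transcript, and every direction given below for KO-labelled cells rests on the label. Summed T cell markers (7 of 7 measured) stood at 3279 to 4698 CPM in all 32 libraries. The 12 myeloid and dendritic markers summed to 14.1 to 19.8 CPM in KO-labelled and 545 to 1698 CPM in WT stimulated cells, and to 961 to 2359.8 CPM in KO-labelled and 2547 to 4323 CPM in WT unstimulated cells. In the 4 inhibitor groups they were at 7.55 to 30.8 CPM, with Cd163 at 0 in KO-labelled cells with XCT790. The WT stimulated libraries held transcripts that were near 0 in the other stimulated groups. The summed level of 73 genes, chosen for being under 2% of their unstimulated level in the other 5 stimulated groups, stood in them at 16.0%, 46.6%, 22.0% and 21.7% of the WT unstimulated mean, here called their unstimulated share. Single unstimulated libraries of both genotypes stood at 61.4% to 147% of the unstimulated mean of their own genotype, so the share is a rough estimate. KO-labelled replicate 2 carried more B cell transcript than the rest of its groups: the 8 markers summed to 234.7 CPM when stimulated and 655 CPM when unstimulated, against at most 54.4 and 124.5 CPM in the other KO-labelled replicates of those groups. The 5 red cell markers of that replicate summed to 228 CPM when stimulated, against 3.59 to 15.9 CPM in the other 3 KO-labelled libraries, and to 158 CPM when unstimulated, against 6.8 to 34.0 CPM. This was all Alas2, an enzyme of heme synthesis, as the 4 globin genes of the list had no count in any library. WT replicate 1 also had more red cell transcript than the rest of its groups, at 96.5 CPM when stimulated and 259 CPM when unstimulated. The CD8 markers stood at 57.9 CPM in KO-labelled stimulated replicate 2, against 27.7 to 33.3 CPM in the other 3. The part of these transcripts in the results was not tested. Counts of the 39 genes called were recomputed with the unstimulated share subtracted from the WT stimulated libraries and without KO-labelled replicate 2. Values of other gene lists were not recomputed in these ways.

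The sequences before the transcription start are shown for 5 members with contrasting patterns: Orc1, which rose most on stimulation, Mcm5, an abundant helicase subunit, Cdc6 and Mcm10, which fell most with the inhibitors, and Rpa1, which fell on stimulation. They are the bases on the coding strand upstream of the RefSeq start (build GRCm38.p6), 5′ to 3′, with at most 30 bases inside an annotated exon. Capitals mark E2F octamers (TTTCCCGC or TTTGGCGC or TTTCGCGC or TTTGCCGC, on either strand) and CCAAT boxes (CCAAT, on either strand).
Orc1 (chr4:108579204-108579452, plus strand): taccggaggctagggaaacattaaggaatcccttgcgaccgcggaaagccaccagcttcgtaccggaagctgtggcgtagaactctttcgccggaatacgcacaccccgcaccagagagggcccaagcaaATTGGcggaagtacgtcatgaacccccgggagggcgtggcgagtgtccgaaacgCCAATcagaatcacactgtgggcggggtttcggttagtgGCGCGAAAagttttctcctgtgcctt
Mcm5 (chr8:75109259-75109508, plus strand): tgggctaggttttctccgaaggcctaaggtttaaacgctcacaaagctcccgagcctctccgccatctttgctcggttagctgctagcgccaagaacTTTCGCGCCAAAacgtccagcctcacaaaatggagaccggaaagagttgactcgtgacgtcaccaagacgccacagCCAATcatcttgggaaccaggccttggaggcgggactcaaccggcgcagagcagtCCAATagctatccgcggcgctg
Cdc6 (chr11:98907982-98908150, plus strand): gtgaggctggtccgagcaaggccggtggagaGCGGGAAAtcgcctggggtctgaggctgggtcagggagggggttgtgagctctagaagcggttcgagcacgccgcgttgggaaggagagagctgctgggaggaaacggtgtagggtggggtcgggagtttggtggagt
Mcm10 (chr2:5012792-5013041, minus strand): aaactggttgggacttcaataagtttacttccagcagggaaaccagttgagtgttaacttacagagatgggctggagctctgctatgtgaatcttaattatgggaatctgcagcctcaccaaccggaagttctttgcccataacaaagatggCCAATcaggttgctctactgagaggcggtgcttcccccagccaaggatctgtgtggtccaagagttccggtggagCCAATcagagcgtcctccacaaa
Rpa1 (chr11:75348384-75348633, minus strand): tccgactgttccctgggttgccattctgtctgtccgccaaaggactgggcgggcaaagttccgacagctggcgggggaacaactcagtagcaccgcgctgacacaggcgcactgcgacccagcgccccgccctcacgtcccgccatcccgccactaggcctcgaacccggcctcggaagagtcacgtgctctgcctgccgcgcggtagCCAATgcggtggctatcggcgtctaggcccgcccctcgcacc

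In the GENCODE annotation of the same assembly Orc1 lies on chromosome 4 from 108579423 to 108614833, Mcm5 on chromosome 8 from 75109569 to 75128439 and Cdc6 on chromosome 11 from 98907801 to 98923940. Mcm10 lies on chromosome 2 from 4989714 to 5012791 and Rpa1 on chromosome 11 from 75298166 to 75348324. The stretches of Mcm5, Mcm10 and Rpa1 lie just before these genes. The last 30 bases of the Orc1 stretch, which hold its E2F octamer, lie in an annotated exon of the gene. The Cdc6 stretch lies inside the outermost span of its gene. The Orc1 stretch holds 1 E2F octamer and 2 CCAAT boxes, and that of Mcm5 holds 2 overlapping E2F octamers and 2 CCAAT boxes. The Cdc6 stretch holds 1 E2F octamer, the Mcm10 stretch 2 CCAAT boxes and no E2F octamer, and the Rpa1 stretch 1 CCAAT box. RefSeq promoters (250 bases before to 50 after the start) were matched for 32 of the 39 genes, as 38 starts; Gins1, Gins2, Gins4, Mcm4, Pole, Prim2 and Rfc2 had no entry. An E2F octamer lay in 13 of the 38 (34.2%), those of Cdc6, Cdt1, Gins3, Lig1, Mcm3, Mcm5, Mcm6, Mcm7, Orc1, Pola1, Pold1, Pole2 and Rfc3, against 2.26% of all 32851 promoters. A CCAAT box lay in 63.2% of them against 37.4% of all. The CHR letters of late cell cycle genes (TTTGAA or TTCGAA) lay in 18.4% against 19.2%. The letters bound by estrogen-related receptors (TNAAGGTCA) lay in 1 member promoter, that of Fen1 (2.63% against 1.28% of all), and those bound by Nur77 (AAAGGTCA) in 0 of 38 against 1.51% of all. These are matches of letters on either strand in this window, and some genes have more than 1 start. Gins3 holds the octamer and did not pass the test on stimulation, and Mcm10 holds none and rose.

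Stimulation raised nearly the whole machinery in both genotypes. In KO-labelled cells 35 of the 39 genes rose and 1 fell, with a median log2 fold change of 1.73, where 39.3% of all genes tested rose, 42.4% fell and the median was -0.07. In WT cells 35 rose and 1 fell, with a median of 1.38, where 34.5% of all genes rose, 38.8% fell and the median was -0.11. The summed level of the 39 was 5370.4, 3588, 5819 and 5991 CPM in KO-labelled stimulated cells, against 1643, 1483, 1776 and 1826 CPM in KO-labelled unstimulated cells. In WT it was 4770.4, 3939, 4089.7 and 4319.8 CPM in stimulated cells, against 1672, 1546, 1569 and 1522 CPM in unstimulated cells. The stimulated and unstimulated libraries did not overlap in either genotype, and KO-labelled replicate 2 was the lowest of its group in both. In bulk RNA, fewer cells with a transcript and less of it per cell cannot be told apart.

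**Figure D1:**
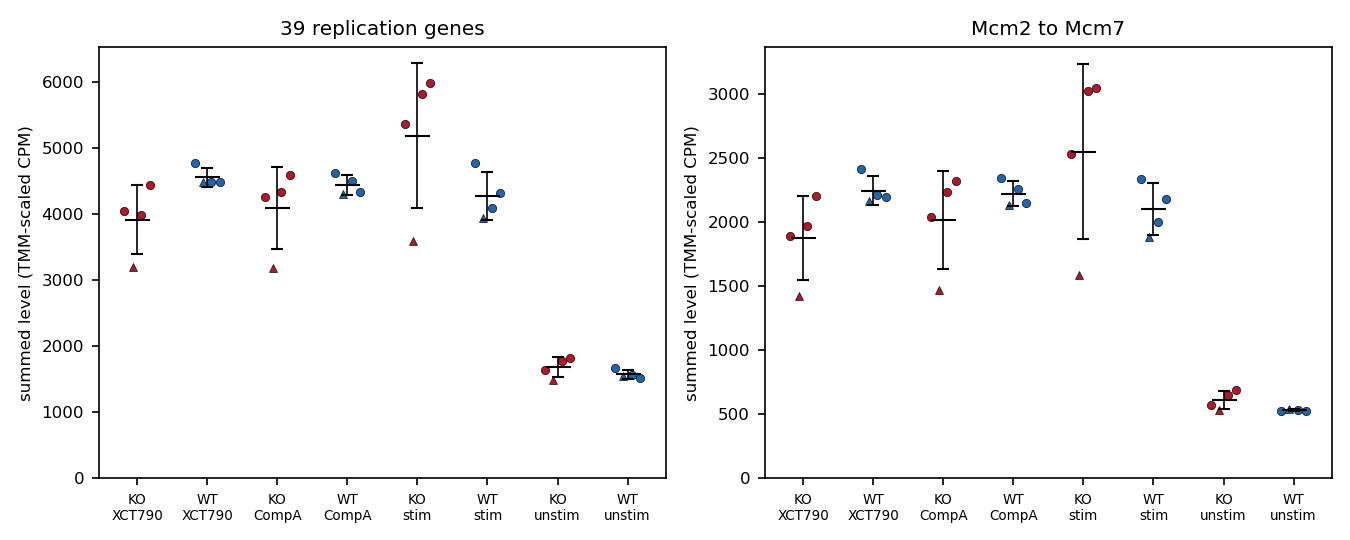
Summed level (TMM-scaled CPM) of the 39 replication genes (left) and of Mcm2 to Mcm7 (right) in each library of the 8 groups, KO-labelled in red and WT in blue. Triangles are replicate 2, and bars give the mean and SD of 4 libraries. All stimulated libraries lie above all unstimulated ones, and replicate 2 is the lowest library of each KO-labelled group.

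All 11 licensing genes rose in both genotypes. Orc1, the ATP-binding subunit of the origin recognition complex that is made and destroyed with the cell cycle, had the largest rise of the 39. It stood at 26.4, 12.8, 30.7 and 31.2 CPM in KO-labelled stimulated cells against 1.05, 0.307, 1.28 and 1.40 CPM in KO-labelled unstimulated cells (log2 fold change 4.64, SE 0.31, adjusted p = 5.3e-14). In WT it stood at 23.5, 14.1, 15.1 and 17.8 CPM in stimulated against 0.7, 0.609, 0.5 and 0.668 CPM in unstimulated cells (log2 fold change 4.81, SE 0.33, adjusted p = 2.9e-13). The gene was close to undetected without stimulation and the groups did not overlap. Orc6, the smallest subunit of the complex, stood at 103, 70.9, 76.6 and 90.9 CPM in KO-labelled stimulated cells against 11.5, 12.6, 11.7 and 12.9 CPM in unstimulated ones (log2 fold change 2.81, SE 0.13, adjusted p = 2.7e-17), and at 80.2, 56.1, 64.2 and 62.3 CPM in WT stimulated against 17.6, 13.6, 17.1 and 13.1 CPM in unstimulated cells (log2 fold change 2.1, SE 0.13, adjusted p = 2.2e-14). Orc2, a core subunit, rose by 2.12 ± 0.11 (SE) on the log2 scale in KO-labelled and 1.95 ± 0.11 in WT cells. Of the loaders, Cdc6 rose by 2.59 ± 0.40 in KO-labelled and 2.25 ± 0.42 in WT cells, and Cdt1, which brings the helicase to the origin, rose less, by 1.04 ± 0.15 and 0.91 ± 0.15. Cdt1 was also the licensing gene with the smallest change in both genotypes.

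The 6 helicase subunits rose together but not equally. Mcm5 stood at 559, 357, 601 and 649 CPM in KO-labelled stimulated cells against 77.4, 74.2, 92.3 and 97.02 CPM in KO-labelled unstimulated cells (log2 fold change 2.67, SE 0.15, adjusted p = 2.3e-15). In WT it stood at 507, 387, 445 and 425 CPM in stimulated against 79.96, 67.3, 72.2 and 71.3 CPM in unstimulated cells (log2 fold change 2.60, SE 0.15, adjusted p = 8.8e-15). The stimulated and unstimulated libraries did not overlap, and KO-labelled replicate 2 was the lowest stimulated library. Mcm2 and Mcm3 rose by 2.42 ± 0.13 and 2.35 ± 0.18 on the log2 scale in KO-labelled and by 2.07 ± 0.13 and 2.23 ± 0.18 in WT cells. Mcm6 and Mcm7 rose by 1.73 ± 0.14 and 1.90 ± 0.18 in KO-labelled and by 1.90 ± 0.14 and 1.62 ± 0.18 in WT cells. Mcm4 rose least, by 1.36 ± 0.20 in KO-labelled and 1.34 ± 0.20 in WT cells. Per kilobase of exon, the mean levels of the 6 in stimulated cells ran from 57.9 (Mcm7) to 135.6 CPM (Mcm5) in KO-labelled and from 46.2 (Mcm7) to 110.4 CPM (Mcm5) in WT cells.

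Of the 6 genes that activate the helicase, 5 rose and Gins3 did not pass the test in either genotype. Gins1 and Gins2, subunits of the GINS complex, were among the largest rises: Gins1 stood at 27.9, 13.6, 23.6 and 28.6 CPM in KO-labelled stimulated against 2.38, 2.63, 3.18 and 3.49 CPM in KO-labelled unstimulated cells (log2 fold change 3.01, SE 0.21, adjusted p = 1.8e-13), and at 21.6, 17.3, 17.7 and 16.6 CPM in WT stimulated against 3.50, 2.64, 2.17 and 2.92 CPM in WT unstimulated cells (log2 fold change 2.71, SE 0.21, adjusted p = 5.3e-12). Gins2 rose by 2.97 ± 0.22 in KO-labelled and 2.73 ± 0.22 in WT cells. The other 2 subunits of the same complex moved less, with Gins4 at 1.04 ± 0.12 in KO-labelled and 0.62 ± 0.12 in WT cells and Gins3 at 0.13 ± 0.19 (adjusted p = 0.55) and -0.07 ± 0.20 (adjusted p = 0.75). The 4 GINS subunits, which work as 1 complex, thus differed widely in their change in transcript. Cdc45, which joins GINS on the helicase, rose by 2.35 ± 0.22 in KO-labelled and 2.11 ± 0.23 in WT cells. Mcm10 was scarce: it stood at 15.6, 3.40, 23.1 and 20.9 CPM in KO-labelled stimulated against 3.13, 1.32, 3.8 and 3.79 CPM in KO-labelled unstimulated cells (log2 fold change 2.39, SE 0.43, adjusted p = 1.2e-05), and at 11.2, 5.50, 6.44 and 9.03 CPM in WT stimulated against 0.891, 1.42, 0.778 and 1.34 CPM in WT unstimulated cells (log2 fold change 2.84, SE 0.48, adjusted p = 7e-06). Its rise was large in ratio, yet per kilobase of exon it was the lowest of the 39 in all stimulated groups.

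Among the sliding clamp and its loader, 5 of 6 rose in both genotypes. Pcna, the clamp that holds polymerases on DNA, stood at 494, 435, 433 and 486 CPM in KO-labelled stimulated against 122, 119, 133 and 144 CPM in KO-labelled unstimulated cells (log2 fold change 1.83, SE 0.10, adjusted p = 1.7e-15), and at 459.5, 378, 382 and 379 CPM in WT stimulated against 193, 137, 151 and 139 CPM in WT unstimulated cells (log2 fold change 1.37, SE 0.10, adjusted p = 1.8e-12). Per kilobase of exon it was the most abundant of the 39 transcripts in all 8 groups. Of the loader, replication factor C, the small subunits Rfc3 and Rfc4 rose by 2.14 ± 0.15 and 2.20 ± 0.18 in KO-labelled and by 1.91 ± 0.16 and 1.69 ± 0.18 in WT cells. Rfc5 and Rfc2 rose less, by 1.51 ± 0.16 and 0.82 ± 0.11 in KO-labelled and 1.08 ± 0.16 and 0.37 ± 0.11 in WT cells. The large subunit Rfc1 did not pass the test, at 0.08 ± 0.32 (adjusted p = 0.83) in KO-labelled and 0.61 ± 0.33 (adjusted p = 0.092) in WT cells. All 8 polymerase and primase genes rose in both genotypes. Prim1, the catalytic primase subunit, and Pold2, the accessory subunit of polymerase delta, rose most, by 2.41 ± 0.15 and 2.38 ± 0.11 in KO-labelled and 1.96 ± 0.15 and 1.88 ± 0.11 in WT cells. Prim2, the large primase subunit, rose by 1.29 ± 0.12 and 0.97 ± 0.12. The catalytic subunits of polymerases alpha, delta and epsilon, Pola1, Pold1 and Pole, rose by 0.72 ± 0.24, 1.52 ± 0.14 and 1.52 ± 0.31 in KO-labelled and by 1.0 ± 0.24, 1.38 ± 0.14 and 1.79 ± 0.33 in WT cells. The second subunits Pola2 and Pole2 rose by 1.04 ± 0.11 and 1.96 ± 0.16 in KO-labelled and by 0.81 ± 0.11 and 1.10 ± 0.16 in WT cells.

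Rpa1 was the only one of the 39 to fall on stimulation. It encodes the large, DNA-binding subunit of replication protein A, which coats single-stranded DNA in replication and in repair. Rpa1 stood at 205, 127, 203 and 194 CPM in KO-labelled stimulated against 262, 212, 252 and 258 CPM in KO-labelled unstimulated cells (log2 fold change -0.43, SE 0.11, adjusted p = 0.00062), and at 189.8, 213, 191 and 182 CPM in WT stimulated against 259, 254, 260.3 and 248 CPM in WT unstimulated cells (log2 fold change -0.40, SE 0.11, adjusted p = 0.0018). The stimulated libraries were all below the unstimulated ones in both genotypes. Its partners Rpa2 and Rpa3 rose by 1.24 ± 0.10 and 1.67 ± 0.15 in KO-labelled and 0.99 ± 0.10 and 1.04 ± 0.15 in WT cells. Per kilobase of exon, Rpa1 was the second most abundant of the 39 in unstimulated cells, and ranked 15 in KO-labelled and 12 in WT stimulated cells. Among the genes of Okazaki fragment processing, the flap nuclease Fen1 rose by 1.87 ± 0.13 in KO-labelled and 1.65 ± 0.13 in WT cells. Lig1, the ligase that seals the fragments, rose in WT cells (0.64 ± 0.29, adjusted p = 0.048) and was at 0.41 ± 0.28 in KO-labelled cells (adjusted p = 0.18). The difference between these 2 responses of Lig1 was -0.22 ± 0.40 and did not pass the test (adjusted p = 0.69). For nucleotide supply, Rrm1, the large subunit of ribonucleotide reductase, rose by 1.34 ± 0.16 in KO-labelled and 1.26 ± 0.16 in WT cells, and Tyms, thymidylate synthase, by 1.15 ± 0.20 and 1.17 ± 0.21. Rrm2, the small subunit of the reductase, whose amount is tied to the cell cycle, rose in KO-labelled cells (0.69 ± 0.32, adjusted p = 0.048) and was at 0.54 ± 0.33 in WT cells (adjusted p = 0.14), with no called difference between the responses (0.15 ± 0.46, adjusted p = 0.82).

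**Figure D2:**
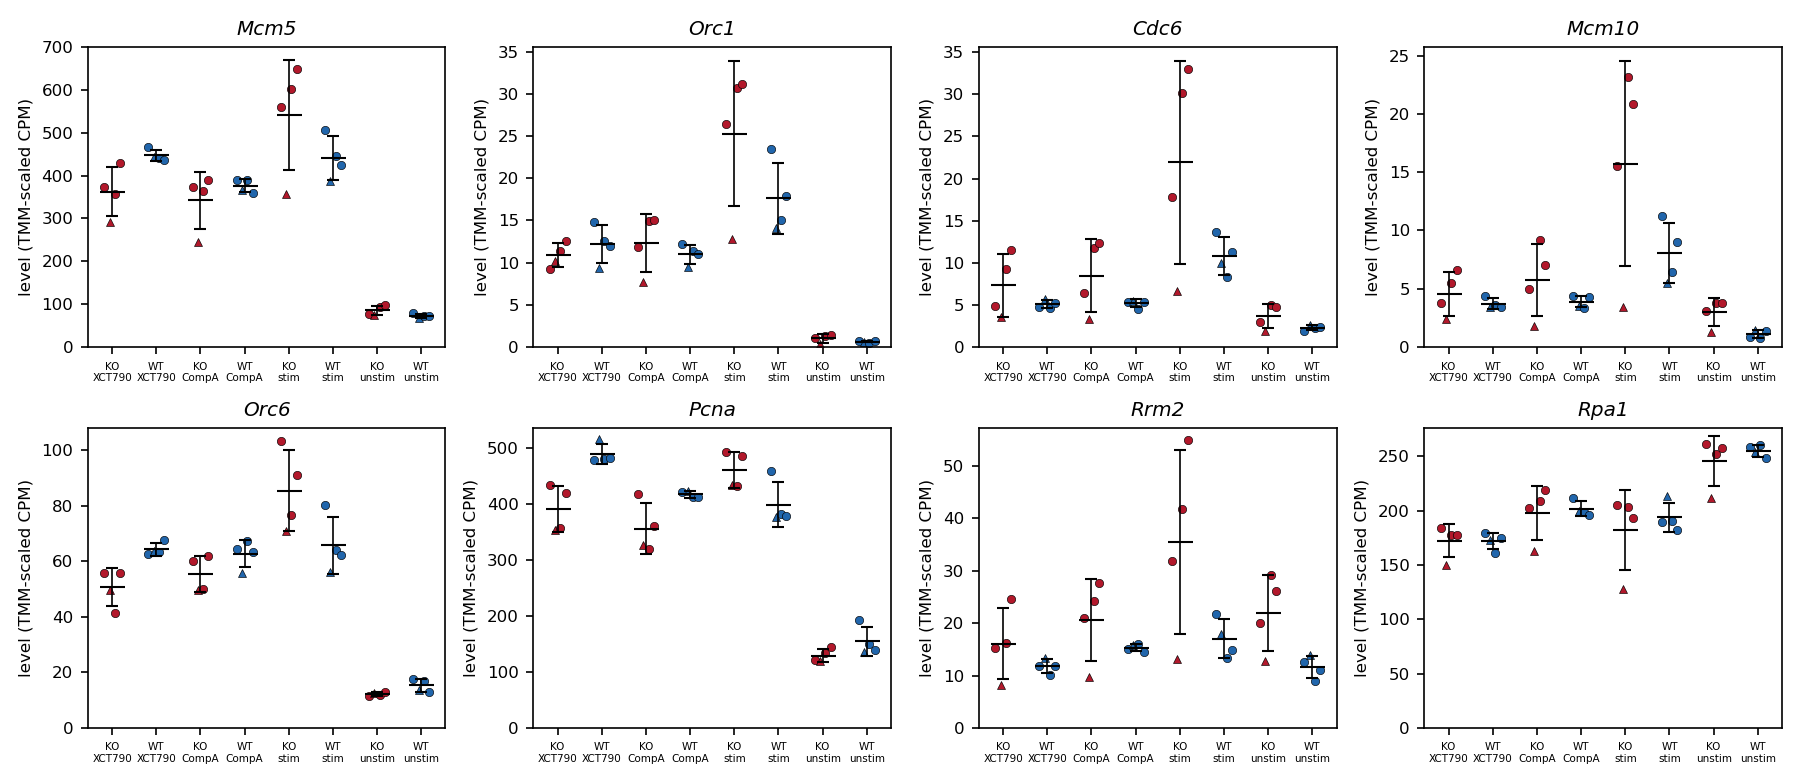
Level (TMM-scaled CPM) of Mcm5, Orc1, Cdc6, Mcm10, Orc6, Pcna, Rrm2 and Rpa1 in each library, KO-labelled in red and WT in blue, with triangles for replicate 2 and bars for the mean and SD of 4 libraries. Orc1 is close to 0 without stimulation, Rpa1 is highest there, and the means of Cdc6 and Mcm10 are lower with either inhibitor than with stimulation alone.

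The counts on stimulation moved little with the libraries in doubt. Without all 4 KO-labelled replicate 2 libraries, 37 genes rose and 1 fell in KO-labelled cells, with a median of 1.81. With the unstimulated share subtracted from the WT stimulated libraries, 36 rose and 1 fell in WT cells, with a median of 1.70. This subtraction widens differences from unstimulated cells by its form. Scaling by library totals in place of TMM lowered the median of all genes to -0.40 in KO-labelled and -0.19 in WT cells, and turned the whole-table split to 3794 genes higher and 6335 lower in KO-labelled cells, where TMM gave 4851 and 5225. Of the 39, 33 still rose in KO-labelled and 34 in WT cells with that scaling, and 1 fell in each.

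Other genes of replication, in 5 lists around the 39, moved the same way on stimulation. Of 55 measured, 45 rose and 4 fell in KO-labelled cells and 44 rose and 4 fell in WT cells, with medians of 1.38 and 1.27. Of all genes tested 39.3% rose and 42.4% fell in KO-labelled cells, and 34.5% and 38.8% did in WT cells. The counts of each list below are to be read beside these shares. Of the genes of origin firing and licensing control, 13 of 15 rose in KO-labelled and 14 of 15 in WT cells, among them Orc4 and Orc3, further origin recognition subunits, by 1.22 ± 0.08 and 1.15 ± 0.09 in KO-labelled and 0.80 ± 0.08 and 0.94 ± 0.09 in WT cells. Of the fork protection and alternative loader genes, 12 of 13 rose in KO-labelled and 10 of 13 in WT cells, with Tipin, a fork-stabilising partner of Timeless, at 2.57 ± 0.14 and 2.1 ± 0.13. Of the other polymerase subunits, 3 of 4 rose and Pold4, a small subunit of polymerase delta, fell in both genotypes, by 1.0 ± 0.18 in KO-labelled cells. Of the genes of chromatin assembly at the fork, 5 of 7 rose in both genotypes, with the histone chaperone Nasp at 2.11 ± 0.09 and 1.59 ± 0.08. The nucleotide supply genes outside the 39 had the largest medians of the 5 lists (2.34 in KO-labelled and 1.68 in WT cells), with 12 of 16 higher and 3 lower in both genotypes. Shmt1, a serine hydroxymethyltransferase that feeds thymidylate synthesis, averaged 220.1 ± 16.5 CPM in KO-labelled stimulated and 10.7 ± 1.48 CPM in unstimulated KO-labelled ones (SD, n = 4 each; log2 fold change 4.36, SE 0.13, adjusted p = 8.6e-21). The 18 mitosis genes did not follow: 3 rose and 5 fell in KO-labelled cells and 4 rose and 2 fell in WT cells.

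In KO-labelled stimulated cells XCT790 went with lower levels across the steps of replication. Of the 39 genes, 19 fell and 0 rose, where 5.07% of all genes tested fell, and the log2 fold changes of all 39 were negative (median -0.41, against 0.02 for all genes). The summed level was 4049.7, 3195, 3987 and 4445 CPM with XCT790 and 5370.4, 3588, 5819 and 5991 CPM without, so replicate 2 without inhibitor lay below 3 of the 4 libraries with XCT790 and the groups overlapped. Each library with XCT790 lay below the library without inhibitor of the same replicate number. By role, 7 of 11 licensing genes fell, 4 of 6 helicase activation genes, 2 of 6 of clamp and loader, 3 of 8 polymerase and primase genes, 1 of 3 single-strand binding genes, 0 of 2 of Okazaki processing and 2 of 3 of nucleotide supply. With the run as a block (4 libraries with consecutive numbers, shared by the same replicate of each group), 30 fell, where 1278 of all 12332 genes did. Without KO-labelled replicate 2 in every group, 26 fell (607 of all 12394 genes), and without that replicate in the stimulated group alone, 31 fell. Leaving out replicate 4 of the stimulated group left 11, and leaving out replicate 2 or 3 of the XCT790 group left 11 or 12. A fit of these 2 groups alone called 3, where 100 of all 11057 genes fell.

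The 3 largest falls were in genes that start replication. Mcm10 stood at 3.79, 2.37, 5.52 and 6.65 CPM with XCT790 and 15.6, 3.40, 23.1 and 20.9 CPM without in KO-labelled cells (log2 fold change -1.78, SE 0.42, adjusted p = 0.0072). Cdc6 stood at 4.91, 3.55, 9.31 and 11.6 CPM with XCT790 and 17.8, 6.67, 30.2 and 32.96 CPM without (log2 fold change -1.58, SE 0.39, adjusted p = 0.0087). Orc1 stood at 9.29, 10.2, 11.3 and 12.6 CPM with XCT790 and 26.4, 12.8, 30.7 and 31.2 CPM without (log2 fold change -1.22, SE 0.25, adjusted p = 0.0023). In all 3 genes replicate 2 was the lowest library without inhibitor, and the spread among the libraries without inhibitor was wide. Orc6 and Orc2 fell by 0.76 ± 0.12 and 0.60 ± 0.10 on the log2 scale, and these and Orc1 kept their calls under every alternative run. Of the helicase, Mcm5 and Mcm2 fell by 0.58 ± 0.14 and 0.47 ± 0.13, while Mcm3, Mcm4, Mcm6 and Mcm7 had values of -0.46, -0.41, -0.37 and -0.30 and did not pass the test. Cdt1, Cdc45, Gins1 and Gins2 fell by 0.45 ± 0.15, 0.77 ± 0.21, 0.87 ± 0.19 and 0.64 ± 0.20. Rrm2 stood at 15.3, 8.11, 16.1 and 24.6 CPM with XCT790 and 31.9, 13.2, 41.8 and 54.9 CPM without (log2 fold change -1.14, SE 0.33, adjusted p = 0.022), and Tyms fell by 0.63 ± 0.20. The remaining calls were Rfc3, Rfc4, Prim1, Pold2, Pole2 and Rpa2, at -0.35 (Pold2) to -0.66 (Prim1). The genes without a call ran from -0.08 (Rpa1) to -0.55 (Gins3).

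CompA gave a like picture in KO-labelled cells. Of the 39 genes 16 fell and 0 rose, where 9.11% of all genes tested fell, with a median of -0.37 against 0.03 for all genes, and the summed level was 4256, 3184, 4337 and 4592 CPM with CompA. Each of these libraries lay below the library without inhibitor of the same replicate number, though the groups overlapped. Both inhibitor groups are set against the same 4 stimulated libraries, so their changes are not independent. Cdc6 stood at 6.41, 3.32, 11.8 and 12.3 CPM with CompA (log2 fold change -1.37, SE 0.38, adjusted p = 0.012) and Mcm10 at 5.00, 1.81, 9.16 and 7.01 CPM (log2 fold change -1.45, SE 0.42, adjusted p = 0.014). Orc1 stood at 11.9, 7.70, 14.9 and 15.02 CPM with CompA (log2 fold change -1.03, SE 0.25, adjusted p = 0.0043). Cdc45, Mcm5 and Gins3 fell by 0.95 ± 0.21, 0.66 ± 0.14 and 0.66 ± 0.20, and Rfc3 by 0.76 ± 0.15. The remaining calls were Gins1, Orc2, Orc6, Pcna, Prim1, Pold2, Pole2, Rpa2 and Tyms, at -0.30 (Pold2) to -0.64 (Tyms). Orc2, Orc6 and Rfc3 kept their calls under every alternative run. With the run as a block 27 fell (1755 of all 12332 genes). Without KO-labelled replicate 2 in every group 25 fell (997 of all 12394 genes), and leaving out replicate 2 of the CompA group left 10. Without replicate 2 of the stimulated group alone 29 fell, and a fit of the 2 groups alone called 3, where 452 of all 11011 genes fell.

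**Figure D3:**
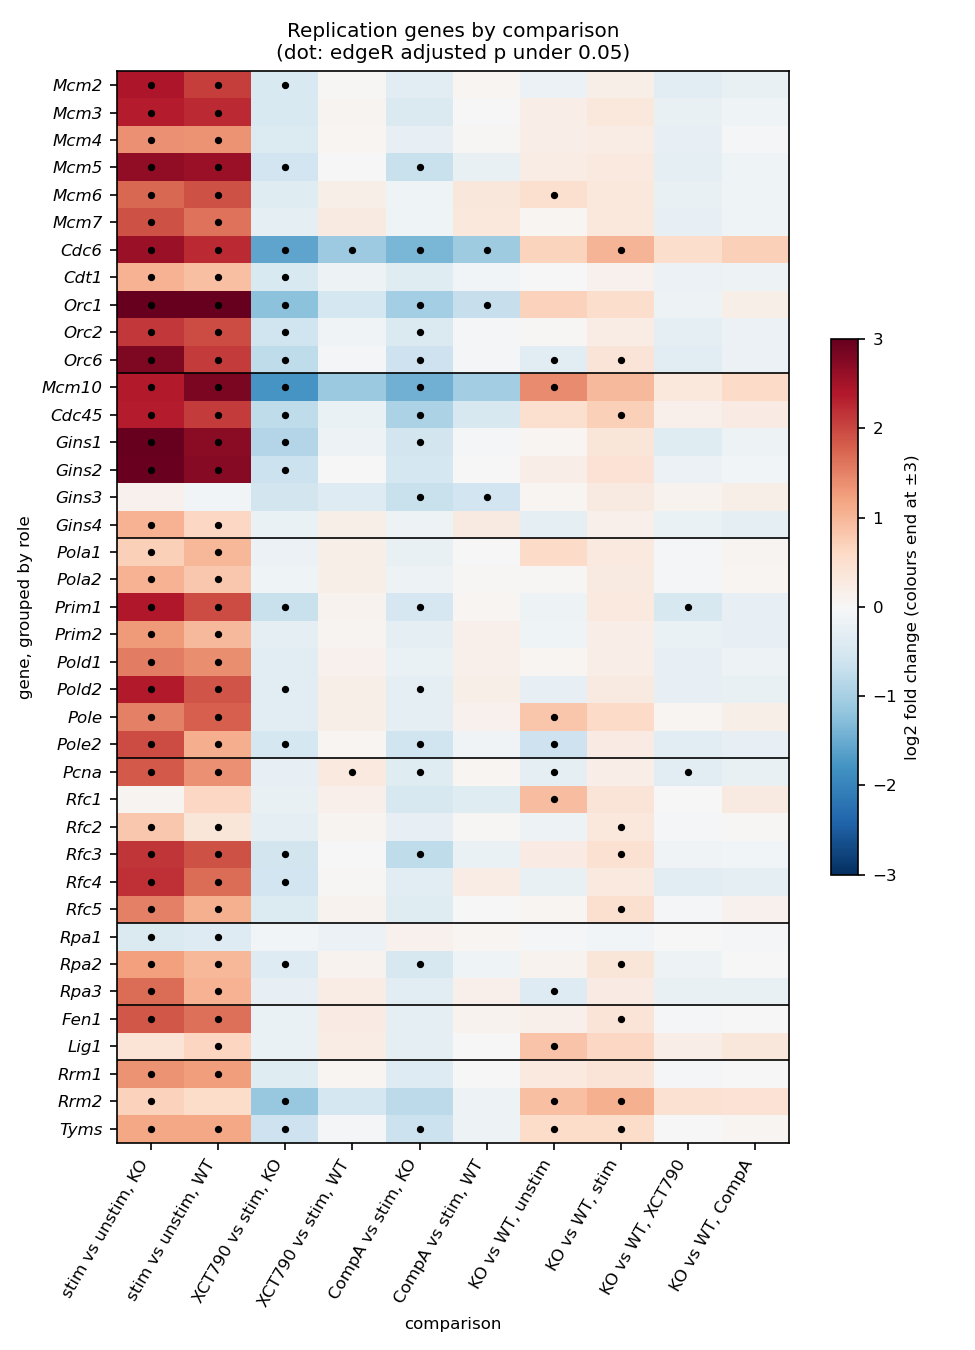
Log2 fold change of each of the 39 genes (ordered by role, down the page) in 10 comparisons (columns), from edgeR's quasi-likelihood fit of all 32 libraries. A dot marks an adjusted p under 0.05. The stimulation columns are positive for all genes but Rpa1 and, in WT, Gins3, and the inhibitor columns are negative in KO-labelled cells (except Rpa1 with CompA) and near 0 for most genes in WT cells.

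In WT cells the same inhibitors gave few calls. With XCT790 Pcna rose (log2 fold change 0.29, SE 0.10, adjusted p = 0.028) and Cdc6 fell (log2 fold change -1.08, SE 0.39, adjusted p = 0.039), where 8.4% of all genes rose and 20.2% fell, and the median of the 39 was 0.07. The summed level was 4769, 4486, 4492 and 4482 CPM with XCT790 and 4770.4, 3939, 4089.7 and 4319.8 CPM without. With CompA 0 genes rose and Cdc6 (log2 fold change -1.06, SE 0.39, adjusted p = 0.038), Orc1 (log2 fold change -0.68, SE 0.25, adjusted p = 0.037) and Gins3 (log2 fold change -0.58, SE 0.20, adjusted p = 0.029) fell, where 11.6% of all genes rose and 21.3% fell, with a median of 0.00 and a summed level of 4618, 4309, 4503 and 4337 CPM. With CompA 7 of the 39 had an unadjusted p under 0.05, DESeq2 called 2 higher and 4 lower, limma-voom 0 higher and 2 lower, and a fit of the 2 groups alone 3 higher and 6 lower. Over all genes DESeq2 called 1890 higher and 2599 lower of 12327, limma-voom 1473 and 2458 of 12332, and the 2 groups alone 1709 and 2242 of 11105. The libraries without inhibitor overlapped those with either inhibitor in the summed level. Cdc6 stood at 4.80, 5.71, 4.66 and 5.26 CPM with XCT790, 5.37, 5.49, 4.45 and 5.39 CPM with CompA and 13.7, 10.01, 8.28 and 11.3 CPM without, which put all 8 libraries with an inhibitor below the 4 without. The same held for the scarce Mcm10, which did not pass the test with either inhibitor. It stood at 4.39, 3.46, 3.58 and 3.43 CPM with XCT790, 4.38, 3.54, 3.38 and 4.25 CPM with CompA and 11.2, 5.50, 6.44 and 9.03 CPM without.

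These WT comparisons rest on the 4 stimulated libraries that kept unstimulated transcripts, whose myeloid markers summed to 545 to 1698 CPM, against 7.55 to 16.5 CPM with XCT790 and 8.67 to 13.7 CPM with CompA. With their estimated unstimulated share subtracted, the median of the 39 became -0.27 with XCT790 and -0.35 with CompA, with 37 of 39 values negative for each, and 5 genes fell with XCT790 and 11 with CompA. Of all 12314 genes tested there, 371 fell with XCT790 and 1315 with CompA. Pcna then had -0.044 with XCT790 and no longer passed the test. The subtraction takes the WT unstimulated profile as the added material, and the source of those transcripts was not tested. Most of the 39 genes were lower in that profile, so the subtraction raises them in the WT stimulated libraries by its form. The direction of the shift was thus set in advance, and only its size depends on the estimated share. Leaving out the WT stimulated library with the highest share (replicate 2) left 0 higher and 0 lower with XCT790 and 1 lower with CompA, and leaving out any 1 WT library left 0 to 1 higher and 0 to 1 lower with XCT790 and 0 to 2 lower with CompA. With the run as a block, XCT790 gave 5 higher and 5 lower and CompA 4 higher and 6 lower in WT cells. Of all 12332 genes the block called 1735 higher and 2935 lower with XCT790 and 2112 higher and 3158 lower with CompA.

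The difference between the genotypes in their response to the inhibitors was tested directly. For XCT790, 11 of the 39 genes fell more (or rose less) in KO-labelled than in WT cells and 0 the other way, where 7.23% of all genes passed in that direction. They were Mcm2, Mcm5, Mcm6, Gins1, Orc2, Orc6, Pcna, Rfc3, Prim1, Pold2 and Rpa2, with interaction values from -0.77 (Prim1) to -0.49 (Orc2). For CompA they were 5, Orc2, Orc6, Pcna, Prim1 and Pold2, where 5.99% of all genes passed in that direction, from -0.56 (Orc6) to -0.40 (Orc2). Both rest on the same stimulated libraries of each genotype. With the run as a block 29 genes passed for XCT790 and 25 for CompA, DESeq2 called 22 and 12, and a fit of the groups compared alone called 6 and 3. The counts over all genes in that direction changed too. They were 1729 and 1669 of 12332 with the block and 1765 and 1602 of 12327 by DESeq2. In the groups compared alone they were 661 of 11505 and 526 of 11480. With the unstimulated share subtracted from the WT stimulated libraries, 0 of the 39 genes passed for either inhibitor and the medians became -0.17 and -0.06. Of all 12314 genes tested there, 0 were higher and 3 lower for XCT790 and 0 passed for CompA. The loss of calls was therefore not particular to the 39. Leaving out KO-labelled replicate 2 in every group gave 26 for XCT790 and 17 for CompA (742 and 517 of all 12394 genes), and leaving out KO-labelled stimulated replicate 2 alone gave 28 and 25. Other single libraries mattered too, with 6 for XCT790 without WT stimulated replicate 2, KO-labelled stimulated replicate 4 or KO-labelled XCT790 replicate 2, and 7 without WT stimulated replicate 3, WT XCT790 replicate 1 or KO-labelled stimulated replicate 3. For CompA, 0 were left without WT stimulated replicate 2, 2 without WT stimulated replicate 3, KO-labelled stimulated replicate 4 or KO-labelled CompA replicate 2 or 3, and 3 without WT CompA replicate 4, whereas 11 passed without KO-labelled CompA replicate 1. Cdc6, Mcm10 and Orc1, the genes with the largest falls in KO-labelled cells, had no called interaction: Cdc6 had -0.49 (adjusted p = 0.54), Mcm10 -0.66 (adjusted p = 0.44) and Orc1 -0.69 (adjusted p = 0.15) for XCT790.

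XCT790 and CompA were given at the same dose and time, and their readouts were compared directly in 2 pairs, 1 per genotype, with p-values adjusted over all genes in each. No member passed in either genotype by edgeR, where 3.24% of all genes did in KO-labelled and 9.41% in WT cells. At an unadjusted p under 0.05 there were 0 members in KO-labelled and 3 in WT cells. The gene-level 95% interval of the log2 difference (XCT790 minus CompA) excluded 0 in WT cells for Pcna (0.02 to 0.44), Rpa2 (0.03 to 0.45) and Rpa1 (-0.45 to -0.005). It spanned 0 for the other 36 genes there and for all 39 in KO-labelled cells. The log2 differences (XCT790 minus CompA) ran from -0.36 to 0.25 in KO-labelled and from -0.38 to 0.52 in WT cells, with gene-level 95% intervals that allow more than this: the difference was -0.21 (95% interval -1.004 to 0.59) for Cdc6, -0.19 (95% interval -0.71 to 0.33) for Orc1 and 0.08 (95% interval -0.22 to 0.38) for Mcm5 in KO-labelled cells, and -0.02 (95% interval -0.85 to 0.81), 0.15 (95% interval -0.37 to 0.67) and 0.25 (95% interval -0.05 to 0.54) for the same genes in WT cells. Fits of these groups alone called 7 genes higher and 4 lower in WT cells, where 1426 and 1428 of all 10625 genes were. The run block called 2 higher and 2 lower in WT and 1 lower in KO-labelled cells. Of all 12332 genes it called 929 higher and 1117 lower in WT and 463 lower in KO-labelled cells.

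Inhibitor-treated cells still differed from unstimulated ones. Against unstimulated cells of the same genotype, 33 genes were higher and 1 lower with XCT790 in KO-labelled cells (39.6% and 39.4% of all genes) and 36 higher and 2 lower in WT cells (37.7% and 41.3% of all genes). With CompA, 33 were higher and 2 lower in KO-labelled cells (39.2% and 39.3% of all genes) and 35 higher and 2 lower in WT cells (37.2% and 41.1% of all genes). The medians were 1.19 in KO-labelled and 1.5 in WT cells with XCT790, and 1.33 in KO-labelled and 1.43 in WT cells with CompA. These are comparisons that do not use the WT stimulated libraries. Without KO-labelled replicate 2 in every group, 34 were higher and 1 lower with each inhibitor in KO-labelled cells. Of the other 55 replication genes, 14 fell and 0 rose with XCT790 in KO-labelled cells (5.07% of all genes fell) and 13 fell and 0 rose with CompA (9.11% of all genes fell). In WT cells 2 fell and 7 rose with XCT790, where 20.2% and 8.4% of all genes did, and 1 fell and 8 rose with CompA, where 21.3% and 11.6% of all genes did. In KO-labelled cells the phosphatase Cdc25a, which activates S-phase kinases, fell by 0.73 ± 0.13 with XCT790 and 0.51 ± 0.13 with CompA, and Tipin by 0.66 ± 0.13 and 0.51 ± 0.13. Ctps, CTP synthase, fell by 0.48 ± 0.11 and 0.50 ± 0.11. Of 11 E2F and pocket protein genes in KO-labelled cells, E2f1 fell with XCT790 (-0.73 ± 0.19) and was at -0.51 ± 0.19 with CompA (adjusted p = 0.057), and Rbl2, the pocket protein p130 of quiescent cells, rose with both (0.60 ± 0.15 and 0.52 ± 0.15).

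Between the genotypes, 10 of the 39 genes were higher and 0 lower in KO-labelled than in WT stimulated cells, where 7.31% of all genes were higher. Of the 39 log2 fold changes 38 were positive (median 0.31, against 0.00 for all genes). The 10 genes were Cdc6 (1.02 ± 0.38), Cdc45 (0.72 ± 0.21), Orc6 (0.38 ± 0.12), Rfc2 (0.31 ± 0.11), Rfc3 (0.47 ± 0.15), Rfc5 (0.49 ± 0.15), Rpa2 (0.36 ± 0.10), Fen1 (0.38 ± 0.13), Rrm2 (1.06 ± 0.33) and Tyms (0.54 ± 0.20). Rrm2, for example, stood at 31.9, 13.2, 41.8 and 54.9 CPM in KO-labelled and 21.8, 17.98, 13.3 and 14.96 CPM in WT stimulated cells (adjusted p = 0.016). KO-labelled replicate 2 lay below all 4 WT libraries and the other 3 lay above them all, and the summed level showed the same, at 3588 CPM in KO-labelled replicate 2 against 3939 to 4770 CPM in WT. That library also had the most B cell (234.7 CPM) and red cell (228 CPM) transcript of its group, and its 18 mitosis genes summed to 55.7 CPM, against 175.9 to 244.9 CPM in the other 3 KO-labelled stimulated libraries.

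This difference depended on a few libraries. Without KO-labelled replicate 2 in every group, 32 genes were higher in KO-labelled stimulated cells and the median was 0.46, where 1151 of all 12394 genes were higher. Without replicate 4 of the KO-labelled stimulated group 1 gene was higher, without its replicate 2 alone 33, and without replicate 1 of that group 6. Leaving out WT stimulated replicate 2, 3 or 4 left 3, 2 or 5. With the unstimulated share subtracted from the WT stimulated libraries the median was -0.01, with 18 positive and 21 negative values and 0 genes past the test. Of all 12314 genes tested there, 499 were higher and 238 lower. The subtraction raises genes that are lower in unstimulated cells, so it lowers this difference for most of the 39 by its form. Orc6 then stood at -0.023 and Fen1 at -0.0021. A fit of these 2 groups alone called 0, where 257 of all 11308 genes were higher. The myeloid markers in the 2 groups were 14.1 to 19.8 CPM in KO-labelled and 545 to 1698 CPM in WT cells, and their part in the result was not tested beyond this subtraction.

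**Figure D4:**
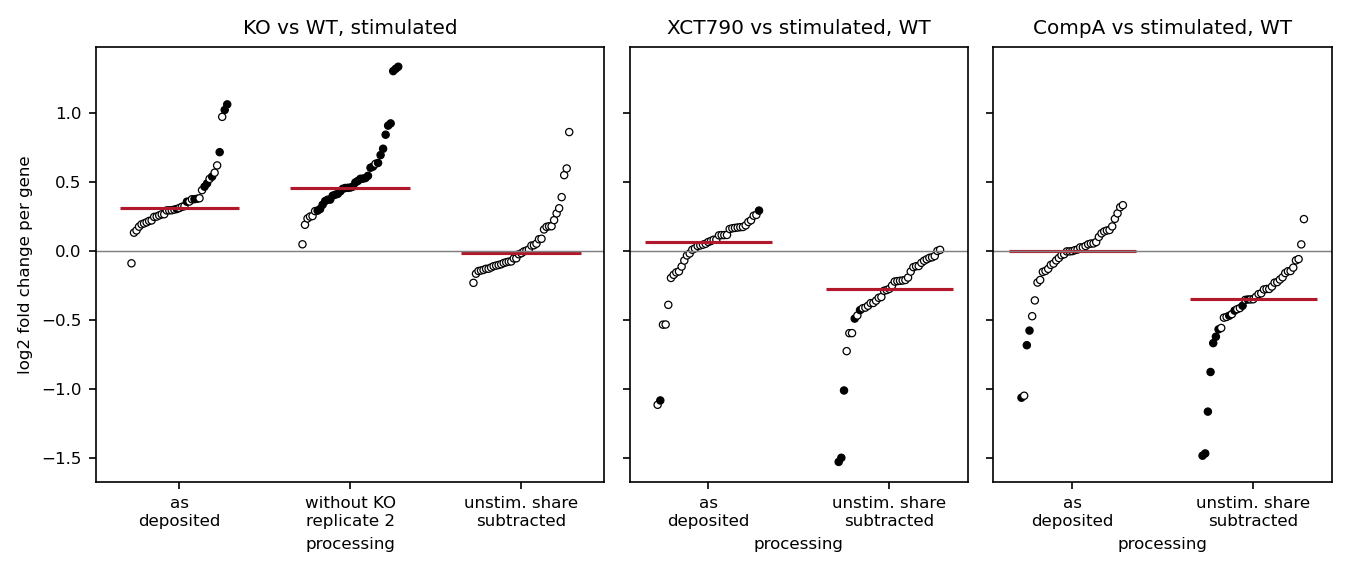
Log2 fold change of the 39 genes (1 point per gene) in KO-labelled against WT stimulated cells and for XCT790 and CompA in WT cells, as deposited and under the alternatives named on the axis. Filled points have an adjusted p under 0.05 and red bars are medians. The genotype difference has a median of 0.31 as deposited, 0.46 without KO-labelled replicate 2 and -0.01 with the unstimulated share subtracted, and both inhibitor medians in WT cells move below 0 with the subtraction. The subtraction raises genes that are lower in unstimulated cells, so the direction of these moves was set in advance.

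Unstimulated cells of the 2 genotypes differed in both directions. Of the 39 genes 7 were higher in KO-labelled cells (12.5% of all genes were) and 4 were lower (23.6% of all genes were), with a median of 0.07. The share lower was smaller than over the whole table, and the share higher was only somewhat larger. Mcm10 stood at 3.13, 1.32, 3.8 and 3.79 CPM in KO-labelled and 0.891, 1.42, 0.778 and 1.34 CPM in WT cells (log2 fold change 1.42, SE 0.48, adjusted p = 0.024). Rrm2 stood at 20.04, 12.7, 29.1 and 26.03 CPM in KO-labelled and 12.7, 13.9, 9.00 and 11.1 CPM in WT cells (log2 fold change 0.91, SE 0.33, adjusted p = 0.032). Both are scarce or variable transcripts without stimulation. Rfc1, Lig1 and Pole were higher by 0.92 ± 0.32, 0.85 ± 0.29 and 0.83 ± 0.33, and Tyms and Mcm6 by 0.56 ± 0.20 and 0.49 ± 0.14. Pole2 was lower by 0.61 ± 0.16, Rpa3 by 0.38 ± 0.15, Orc6 by 0.33 ± 0.13 and Pcna by 0.26 ± 0.10. The direction depended on the scaling: with library totals in place of TMM, 14 were higher and 1 lower, and all genes turned to 2992 higher and 1183 lower, where TMM gave 1543 and 2911. The median of all genes was 0.13 with library totals and -0.08 with TMM. Leaving out 1 library moved the counts both ways. There were 1 higher and 0 lower without WT unstimulated replicate 1, 8 higher and 6 lower without replicate 2, 1 and 1 without replicate 3, and 4 and 6 without replicate 4. There were 5 higher and 1 lower without KO-labelled replicate 1, 9 and 1 without replicate 2, 1 and 1 without replicate 3, and 2 and 2 without replicate 4. Without KO-labelled replicate 2 in every group, 14 were higher and 1 lower. Of the 18 mitosis genes, 12 were higher and 0 lower in KO-labelled unstimulated cells, and the myeloid markers summed to 961 to 2359.8 CPM in KO-labelled and 2547 to 4323 CPM in WT cells; their part in the result was not tested.

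The difference between the genotypes was set against transcript length. Over the 39 genes the log2 fold change of KO-labelled against WT unstimulated cells had a rank correlation of 0.45 with total exon length, and over 11827 genes of the table it was 0.34. With XCT790 the correlation of KO-labelled against WT cells was 0.42 over the 39 and 0.06 over all genes, and with CompA it was 0.43 and 0.12. For the genotype by stimulation interaction the correlation was -0.52 over the 39 and -0.32 over all genes, and for KO-labelled against WT stimulated cells it was 0.18 and -0.15. For the genotype by CompA interaction it was 0.43 and 0.18, and for the genotype by XCT790 interaction 0.26 and 0.14. Libraries of the same group also differed among themselves in their relation to length. The per-library rank correlations were -0.54, 0.48, -0.14 and 0.44 in WT unstimulated cells. They were 0.26, -0.17, 0.22 and -0.26 in KO-labelled unstimulated cells. Their signs do not show whether the relation is particular to the comparison of genotypes. These are descriptions across genes of the same libraries, and the part of length in the results was not tested. In the genotype by stimulation interaction, 6 of the 39 rose more in KO-labelled cells and 0 less. Of all genes 17.2% passed in that direction, so the share among the 39 was not larger than over the whole table. The 6 genes were Pole2 (0.86 ± 0.23), Orc6 (0.71 ± 0.18), Rpa3 (0.63 ± 0.21), Pold2 (0.50 ± 0.14), Pcna (0.47 ± 0.14) and Rfc2 (0.45 ± 0.16). Without WT unstimulated replicate 1, 2 passed, without WT unstimulated replicate 4, 10, and without KO-labelled stimulated replicate 2, 16. With library totals 2 passed and the median of the 39 was -0.02, against 0.23 with TMM. With the unstimulated share subtracted 0 passed and the median was -0.13, where 602 of all 12314 genes were higher.

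With XCT790 the summed level of the 39 genes was 4050, 3195, 3987 and 4445 CPM in KO-labelled and 4769, 4486, 4492 and 4482 CPM in WT cells, which put all 4 KO-labelled libraries below all 4 WT libraries. With CompA it was 4256, 3184, 4337 and 4592 CPM in KO-labelled and 4618, 4309, 4503 and 4337 CPM in WT cells, and the groups overlapped. The median log2 fold change was -0.17 with XCT790 and -0.07 with CompA. With XCT790, 0 of the 39 genes rose and 2 fell in KO-labelled relative to WT cells, where 2.11% of all genes were lower. Pcna stood at 435, 355, 358 and 420.1 CPM in KO-labelled and 480.1, 517, 481 and 482 CPM in WT cells (log2 fold change -0.32, SE 0.10, adjusted p = 0.04), and Prim1 at 48.1, 37.1, 39.6 and 54.3 CPM in KO-labelled and 62.9, 64.1, 60.4 and 62.3 CPM in WT cells (log2 fold change -0.48, SE 0.14, adjusted p = 0.028). KO-labelled replicate 2 was the lowest of the 8 libraries in both genes, and its red cell markers summed to 26.8 CPM, against 0.694 to 4.14 CPM in the other 3 KO-labelled libraries. DESeq2 called 0 higher and 4 lower. Leaving out WT XCT790 replicate 1, 3 or 4 or KO-labelled XCT790 replicate 2 or 3 left 0, and WT replicate 2 left 1. With CompA 0 genes passed by edgeR, where 7.7% of all genes did, 3 had an unadjusted p under 0.05, and DESeq2 also called 0. Without KO-labelled replicate 2 in every group, 1 gene was higher and 1 lower with XCT790, and 3 were higher and 0 lower with CompA. Genotype cannot be told apart from the order of the library numbers, since the WT libraries carry the lower numbers and the KO-labelled libraries the higher ones.

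Most of the 39 genes varied together over the 32 libraries. The correlation of each gene's log2 level with the mean of the other 38 was 0.82 or more for 34 of them, highest for Rrm1 (0.99), and was 0.61 for Lig1, 0.42 for Rrm2, 0.29 for Rfc1, -0.12 for Gins3 and -0.57 for Rpa1. This is a description over libraries that share their groups, and it takes in the step between unstimulated and stimulated cells. Over the same 32 libraries, the 10 genes outside the 39 whose log2 level followed the mean of the 39 most closely were Mms22l, Trip13, Hells, Mcm8, Dtl, Wdhd1, Fignl1, E2f1, Chek1 and Cdc25a, at 0.97 to 0.99. Counts are per gene, so transcript isoforms were not resolved, and the counting was not stated to use strand, so reads from overlapping antisense transcripts cannot be told apart from those of the genes named.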

How the data were processed

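RNA from mouse CD4+ T cells was measured in 32 libraries, 8 groups of 4. Per the submitters' processing notes the reads passed through Trimmomatic 0.36, HISAT2 2.1.0, SAMtools, HTSeq 0.9.1, R 3.4.4 and DESeq2 1.18.1 with build mm10, in roles and an order that are not stated there. The deposited values are whole-number counts per gene, not normalised, and are taken here as the authors deposited them, less 5 summary lines per library (no feature 5.31% to 13.3% and ambiguous 1.1% to 2.32% of all counted reads). No source used here says whether counting used strand. Totals of 16020288 to 23687940 counts make counting error small for all but the scarce members, of which Mcm10, Cdc6 and Orc1 had the fewest counts. Others were low in single libraries, with Gins1 down to 39 counts, Gins2 to 57, Gins3 to 48, Cdc45 to 65 and Pole to 61.

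Counts were fitted in edgeR 4.0.16 (R 4.3.3, limma 3.58.1) with TMM factors, filterByExpr by group, a mean per group over all 32 libraries, and the quasi-likelihood test with Benjamini-Hochberg adjustment over 12332 genes; a call is an adjusted p under 0.05. Values with ± are the log2 fold change and its standard error. The script was tested on simulated counts. 1 gene of a marker list is not reported here and stays out of that list's sums. Promoters came from RefSeq tables (GRCm38.p6), and gene positions and exon lengths from GENCODE. Members, lists and tests were chosen with earlier results of these data known. All 39 members are named; of each other list, up to 3 genes with the smallest adjusted p in a comparison. Alternatives were library totals, upper-quartile factors, DESeq2 1.42.0, limma-voom, no filter on low counts, the compared groups alone, the run as a block, leaving out each library or KO-labelled replicate 2 in every group, and a subtraction of the unstimulated share. That share is the summed level of 73 genes in a WT stimulated library over that in WT unstimulated cells, the genes being those under 2% of their unstimulated level in the other 5 stimulated groups and at least 10 CPM in both unstimulated groups.

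The title numbers run in sets of 4 (1 library per condition of a genotype), here called runs, and replicates are numbered by run. The labels do not say what a run shares. Same-run libraries deviated together in every pair of KO-labelled groups (correlations 0.18 to 0.65), and in WT between unstimulated and stimulated groups (0.34 to 0.53) and between the inhibitor groups (0.15 to 0.42), but not in every other WT pair. Runs are nested in genotype, so the block could not be used between genotypes.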

Additional observations from a re-analysis of the deposited data

Results flagged for a closer look

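In groups of 4 libraries, 16 of 312 gene and group sets held 1 library far from the other 3, about as many as chance gives (about 1 in 20). KO-labelled replicate 2 was the library set apart for Rpa1 (127 CPM) when stimulated, Cdt1 (42.9 CPM) with XCT790, Pold1 (90.9 CPM) with CompA, and Pola1 (13.8 CPM), Pold1 (51.8 CPM) and Pole (5.66 CPM) when unstimulated. KO-labelled unstimulated replicate 1 stood apart for Rpa2 (38.0 CPM). In WT cells with XCT790, replicate 1 stood apart for Mcm2 (424 CPM), Mcm10 (4.39 CPM), Rrm1 (153 CPM) and the summed level of the 39 genes (4769 CPM), and replicate 2 for Pcna (517 CPM), Pole (16.2 CPM) and Pole2 (33.4 CPM). WT replicate 3 with CompA stood apart for Cdc6 (4.45 CPM), WT stimulated replicate 1 for Pcna (459.5 CPM) and WT unstimulated replicate 1 for Orc2 (43.9 CPM).

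The response differed between the genotypes by the interaction test in edgeR for these genes, each value being the log2 response in KO-labelled cells minus that in WT cells. For XCT790, where 7.23% of all genes passed in this direction, the values were -0.51 (Mcm2), -0.60 (Mcm5), -0.55 (Mcm6), -0.72 (Gins1), -0.49 (Orc2), -0.73 (Orc6), -0.53 (Pcna), -0.57 (Rfc3), -0.77 (Prim1), -0.51 (Pold2) and -0.51 (Rpa2). For CompA, where 5.99% of all genes passed, they were -0.40 (Orc2), -0.56 (Orc6), -0.44 (Pcna), -0.54 (Prim1) and -0.48 (Pold2). For stimulation 6 of the 39 passed, where 17.2% of all genes did, not a larger share than over the whole table, and the values were 0.71 (Orc6), 0.47 (Pcna), 0.45 (Rfc2), 0.50 (Pold2), 0.86 (Pole2) and 0.63 (Rpa3). Each uses the WT stimulated libraries, and 0 of these interactions were called with the unstimulated share subtracted from those libraries. Of all 12314 genes tested there, 0 were higher and 3 lower for XCT790 and 0 passed for CompA. For stimulation 602 were higher and 307 lower.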

How the results depend on the processing

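Numbers are counts of the 39 genes called, and the cause of each change was not tested. The share of all genes called also changed with each alternative, so these counts are not to be set against the shares of the reported fit. With the run as a block, for example, 1735 of all 12332 genes were higher and 2935 lower with XCT790 in WT cells. For the XCT790 interaction 1729 were lower with the block. The stimulation counts, and those against unstimulated cells, stayed within 1.5 times of the reported ones for higher calls under every alternative. With only the groups compared, XCT790 gave 3 higher and 5 lower in WT and 3 lower in KO-labelled cells, CompA 3 higher and 6 lower in WT and 3 lower in KO-labelled cells, and XCT790 against CompA 7 higher in WT; KO-labelled against WT gave 1 lower unstimulated, 0 higher stimulated and 4 lower with XCT790, and the interactions 2 (stimulation), 6 (XCT790) and 3 (CompA). With the replicate block (run), XCT790 gave 5 higher and 5 lower in WT and 30 lower in KO-labelled cells, CompA 4 higher and 6 lower in WT and 27 lower in KO-labelled cells, XCT790 against CompA 2 higher in WT, and the interactions 11, 29 and 25 in the same order. With the unstimulated share subtracted, XCT790 gave 0 higher and 5 lower and CompA 11 lower in WT, KO-labelled against WT stimulated 0 higher, and the interactions 0, 0 and 0. Of all 12314 genes the same subtraction left 0 higher and 3 lower for the XCT790 interaction and 0 for that of CompA. Values of single genes turned there: Pcna with XCT790 in WT -0.044, Mcm2 with CompA in WT -0.35, and Fen1 -0.0021 and Orc6 -0.023 in KO-labelled against WT stimulated cells. Library totals gave 2 lower with XCT790 in WT, 14 higher and 1 lower in KO-labelled against WT unstimulated cells, and interactions of 2, 5 and 3. Upper-quartile factors gave 2 lower with XCT790 in WT, 1 lower in KO-labelled against WT both unstimulated and with XCT790, and interactions of 7 (XCT790) and 3 (CompA). DESeq2 gave 2 lower with XCT790 and 2 higher with CompA in WT, 1 lower unstimulated, 16 higher stimulated and 4 lower with XCT790 in KO-labelled against WT, and interactions of 22 (XCT790) and 12 (CompA). limma-voom gave 0 lower with XCT790 in WT, and 3 higher and 1 lower in KO-labelled against WT unstimulated cells; no filter on low counts gave 0 lower with XCT790 in WT. Without KO-labelled replicate 2 in every group, CompA gave 25 lower in KO-labelled cells, KO-labelled against WT gave 14 higher and 1 lower unstimulated, 32 higher stimulated, 1 lower with XCT790 and 3 higher with CompA, and the interactions were 15, 26 and 17. Leaving out 1 library at a time gave, for XCT790, 0 to 1 higher and 0 to 1 lower in WT and 11 to 31 lower in KO-labelled cells, and for CompA 0 to 2 lower in WT and 10 to 29 lower in KO-labelled cells. It gave, in KO-labelled against WT cells, 1 to 9 higher and 0 to 6 lower unstimulated, 1 to 33 higher stimulated and 0 to 2 lower with XCT790, and interactions of 2 to 16 (stimulation), 6 to 28 (XCT790) and 0 to 25 (CompA). Depth limits the scarce genes, above all Mcm10, Cdc6 and Orc1, and also Gins1, Gins2, Gins3, Cdc45 and Pole in single libraries.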

Other observations

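The regulators upstream of these genes did not all move with them on stimulation. Of 11 E2F and pocket protein genes, 5 rose and 4 fell in KO-labelled cells, where 39.3% and 42.4% of all genes did. In WT cells 5 rose and 3 fell, where 34.5% and 38.8% of all genes did, so these counts were near the whole-table shares. E2f3, a transcriptional activator, rose by 1.87 ± 0.15 in KO-labelled and 1.78 ± 0.15 in WT cells. E2f6, a repressor of the family, rose by 1.41 ± 0.07 and 1.31 ± 0.07. Rbl2 fell by 2.58 ± 0.16 in KO-labelled cells and was lower there than in WT stimulated cells (-0.96 ± 0.15), a value not recomputed with the unstimulated share subtracted from the WT libraries. In WT cells E2f2 fell with XCT790 (-1.82 ± 0.21) and with CompA (-1.57 ± 0.21), 2 comparisons that share the WT stimulated libraries with their unstimulated transcripts.

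Before stimulation, KO-labelled cells had more mitosis transcript. Their 18 transcripts summed to 225, 109, 299 and 257 CPM in KO-labelled and 73.2, 124, 71.6 and 92.7 CPM in WT unstimulated cells. Of these 12 were higher and 0 lower, where 12.5% and 23.6% of all genes were. Bub1, a spindle checkpoint kinase, had 1.77 ± 0.48, and Top2a, which untangles sister chromatids, 1.67 ± 0.47. Replicate 2 was the lowest of the KO-labelled and the highest of the WT unstimulated libraries, so the groups overlapped. Esrra, the target of XCT790, was itself lower with XCT790, by 0.61 ± 0.13 in KO-labelled and 0.53 ± 0.13 in WT cells.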
